A study of Mus musculus with 8 samples.

Results

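Malat1, Neat1, Meg3 and Miat are long noncoding RNAs that remain in the nucleus, and Sfpq, Nono and Pspc1 are proteins of the paraspeckle. All probe sets annotated to exactly 1 of these 7 symbols were taken, which gave 34 probe sets (Malat1 7, Neat1 2, Meg3 11, Miat 2, Sfpq 6, Nono 4 and Pspc1 2) of the 45037 tested, and 7 of the 18193 genes named on the array. The one with the greatest average level, called the brightest below, stands for the gene. The genes were selected on log2 values of these same arrays, and it is not recorded which comparison led to the choice, so every difference of a member below is a description.

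Expression was measured in the hippocampus of female mice on 8 one-colour Affymetrix mouse arrays, with 2 arrays in each of 4 groups. MT8m and MT4m are Tg6799 mice at 8 and 4 months, which carry human APP with the Swedish, Florida and London mutations and human PS1 with M146L and L286V, both driven by Thy1 promoter sequence and so mainly in neurons. LM8m and LM4m are their littermates at the same ages. The study placed the younger age early and the older age late in the symptomatic period of this Alzheimer's disease model, and asked how hippocampal RNA differs with genotype and age. No source states whether replicate arrays hold RNA of different mice or of pooled mice. The errors and p-values therefore measure array-to-array spread, part of which may be technical. In whole hippocampus, fewer cells of a type and less RNA per cell cannot be told apart.

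A paraspeckle is a nuclear body built on Neat1 RNA, to which the related RNA-binding proteins Sfpq, Nono and Pspc1 bind. Malat1, encoded beside Neat1, lies in nuclear speckles, where SR splicing proteins are stored, and is among the most abundant nuclear RNAs of neurons. Meg3 is transcribed from the maternal copy of the Dlk1-Dio3 imprinted region, and Miat, also called Gomafu, is a nuclear RNA of neurons that binds splicing factors. In the RefSeq annotation of GRCm38.p6, Malat1 lies at chr19:5795690-5802672 and Neat1 at chr19:5824708-5845480, with 22035 bases between them. Meg3 lies at chr12:109540996-109571729, Miat at chr5:112213228-112228948, Sfpq at chr4:127020716-127051101, Nono at chrX:101429560-101448593 and Pspc1 at chr14:56722441-56778318. No source used here places the probe sets along these transcripts. By the maker's naming, probes of a set ending in _s_at or _a_at match several transcripts, and those of a set ending in _x_at may bind others.

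RefSeq promoters, 250 bases before to 50 bases after an annotated start, are shown for the RNA with the largest age difference among the members, for the imprinted RNA that varied with it, and for the protein gene whose probe sets disagreed. Capitals mark TGACG, the core of a cyclic AMP response element, CCAAT, and TATAAA, on either strand. The Malat1 window is chr19:5802623-5802922 on the minus strand, the Meg3 window chr12:109540746-109541045 on the plus strand, and the Sfpq window chr4:127021051-127021350 on the plus strand.
Malat1: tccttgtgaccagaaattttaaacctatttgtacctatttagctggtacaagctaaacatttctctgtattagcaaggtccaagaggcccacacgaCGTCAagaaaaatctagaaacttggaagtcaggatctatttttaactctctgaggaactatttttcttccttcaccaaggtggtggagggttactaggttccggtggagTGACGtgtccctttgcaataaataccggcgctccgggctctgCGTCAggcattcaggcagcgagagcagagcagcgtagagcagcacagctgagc
Meg3: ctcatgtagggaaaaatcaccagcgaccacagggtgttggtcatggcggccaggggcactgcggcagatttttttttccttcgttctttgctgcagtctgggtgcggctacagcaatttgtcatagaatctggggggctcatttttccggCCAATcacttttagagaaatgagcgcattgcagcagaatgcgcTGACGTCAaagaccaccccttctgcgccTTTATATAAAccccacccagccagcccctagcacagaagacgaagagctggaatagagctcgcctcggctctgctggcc
Sfpq: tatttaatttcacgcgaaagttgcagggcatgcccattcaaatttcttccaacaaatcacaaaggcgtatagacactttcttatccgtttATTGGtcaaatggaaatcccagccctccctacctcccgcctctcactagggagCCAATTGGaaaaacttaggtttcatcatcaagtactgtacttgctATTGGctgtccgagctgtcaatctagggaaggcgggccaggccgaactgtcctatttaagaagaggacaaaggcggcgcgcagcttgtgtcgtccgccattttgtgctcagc
Malat1 held TGACG at 3 places, starting at positions -154, -45 and -3 from the annotated start, which is 0 here. Meg3 held the full palindrome TGACGTCA at -57, in which TGACG lies on both strands, with CCAAT at -100 and 2 overlapping TATAAA matches at -29 and -25. Sfpq held 4 CCAAT matches, at -160, -107, -104 and -62, of which the middle pair overlap on opposite strands. The whole Sfpq window lies inside the gene span given above, so its start is not the outermost end of that span. The start used for Nono also lies inside its gene span. Of 32851 mouse promoter windows of this length, 20.8% held TGACG, 1.79% TGACGTCA, 37.4% CCAAT and 13.6% TATAAA. Neither the Miat window nor the second annotated Meg3 window held any of these motifs, while Nono held 2 CCAAT matches and Pspc1 1. These matches describe letters, not bound sites.

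The labels of the arrays were checked. Thy1, whose promoter drives the transgenes, was 9.90 and 11.79 in MT8m, 9.92 and 9.53 in LM8m, 11.73 and 11.82 in MT4m, and 9.96 and 9.76 in LM4m. The library labelled MT8m replicate 1 thus lay at the littermate level, and Cst7, a gene of microglia at plaques, was 1.75 there and 8.03 in MT8m replicate 2. Cst7 was 2.08 and 2.14 in LM8m, 6.69 and 5.92 in MT4m, and 2.18 and 2.06 in LM4m. Gfap, the filament protein of astrocytes, was 7.17 and 9.80 in MT8m, 7.04 and 6.99 in LM8m, 8.45 and 8.21 in MT4m, and 7.31 and 7.20 in LM4m. Ttr, the leading choroid plexus marker, was 10.69 and 10.66 in MT8m, 12.75 and 12.83 in LM8m, 10.97 and 10.67 in MT4m, and 12.43 and 12.60 in LM4m, so by this gene the same library lay with the other MT arrays. The labels were kept, and the averaged differences of each gene's brightest probe set are also given without this library. The difference between the 3′ and 5′ control probe sets of Gapdh was 0.66 to 1.42 at 8 months and 0.99 to 2.19 at 4 months, with LM4m replicate 1 the highest. The mean levels of all 8 marker lists of hippocampal, vascular, choroid plexus and meningeal cells overlapped between the ages, and 2 of them, choroid plexus and ependyma, were lower on every MT array than on any LM array. Levels over the hippocampal neuron markers (9 of 10 measured) lay between 6.40 and 6.86 at 8 months and between 6.34 and 6.92 at 4 months. All values below are log2 expression values, the number of arrays limits their precision, and their zero point is uncertain because the median over probe sets (2.48) is low for such data.

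Malat1 was the member with the largest age difference: its brightest probe set was 2.11-fold higher at 8 months than at 4 months, in mutants and littermates alike in direction. The brightest probe set, 1418189_s_at, was 11.29 and 10.59 in MT8m, 11.06 and 10.66 in LM8m, 9.98 and 9.95 in MT4m, and 9.52 and 9.83 in LM4m. All 4 arrays of 8 months lay above all 4 arrays of 4 months. The difference, 8 minus 4 months averaged over genotypes, was 1.08 ± 0.17 (SE, 95% interval 0.70 to 1.46), which did not pass after Benjamini-Hochberg adjustment over all probe sets (limma, adjusted p = 0.393), and it stood at rank 12 of 45037 by p. In this comparison 0% of all 45037 probe sets passed. It was 0.91 without the library labelled MT8m replicate 1, and 0.83 without LM4m replicate 1 as well.

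A pair of further Malat1 probe sets gave nearly the same values. 1418188_a_at was 9.90 and 9.05 in MT8m, 9.32 and 9.32 in LM8m, 8.49 and 8.59 in MT4m, and 7.95 and 8.56 in LM4m. 1438403_s_at was 9.16 and 8.46 in MT8m, 8.91 and 8.61 in LM8m, 7.85 and 7.84 in MT4m, and 7.19 and 7.98 in LM4m. Their age differences were 1.00 ± 0.20 and 1.07 ± 0.20, again with no overlap between ages, and over the 8 arrays they had Pearson correlations of 0.97 and 0.98 with the brightest.

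The other 4 Malat1 probe sets were also higher at 8 months, but with overlap. The differences were 0.80 ± 0.21 for 1452378_at, 0.48 ± 0.21 for 1427285_s_at, 0.34 ± 0.16 for 1429060_at and 0.26 ± 0.21 for 1436202_at. The array of 4 months that came closest differed among them. It was LM4m replicate 2 for 1427285_s_at (3.78, against a highest value of 3.89 at 8 months) and LM4m replicate 1 for 1436202_at (6.10, against 6.34). The mean of all 7 probe sets gave 0.72 in place of 1.08.

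In mutants alone the age difference of the brightest Malat1 probe set was 0.97 ± 0.24 and in littermates alone 1.19 ± 0.24. The difference between these differences was -0.21 ± 0.34 (interval -0.98 to 0.55, adjusted p = 1.00), so the data neither show that the genotypes aged differently nor that they aged alike. Without the library labelled MT8m replicate 1 the value in mutants was 0.62 and the difference between genotypes -0.56, and without MT8m replicate 2 they were 1.32 and 0.14. LM4m replicate 1, the lowest array for 5 of the 7 Malat1 probe sets, was the array with the largest Gapdh 3′ to 5′ difference. With that difference as a covariate the Malat1 age difference was 1.05.

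**Figure D1:**
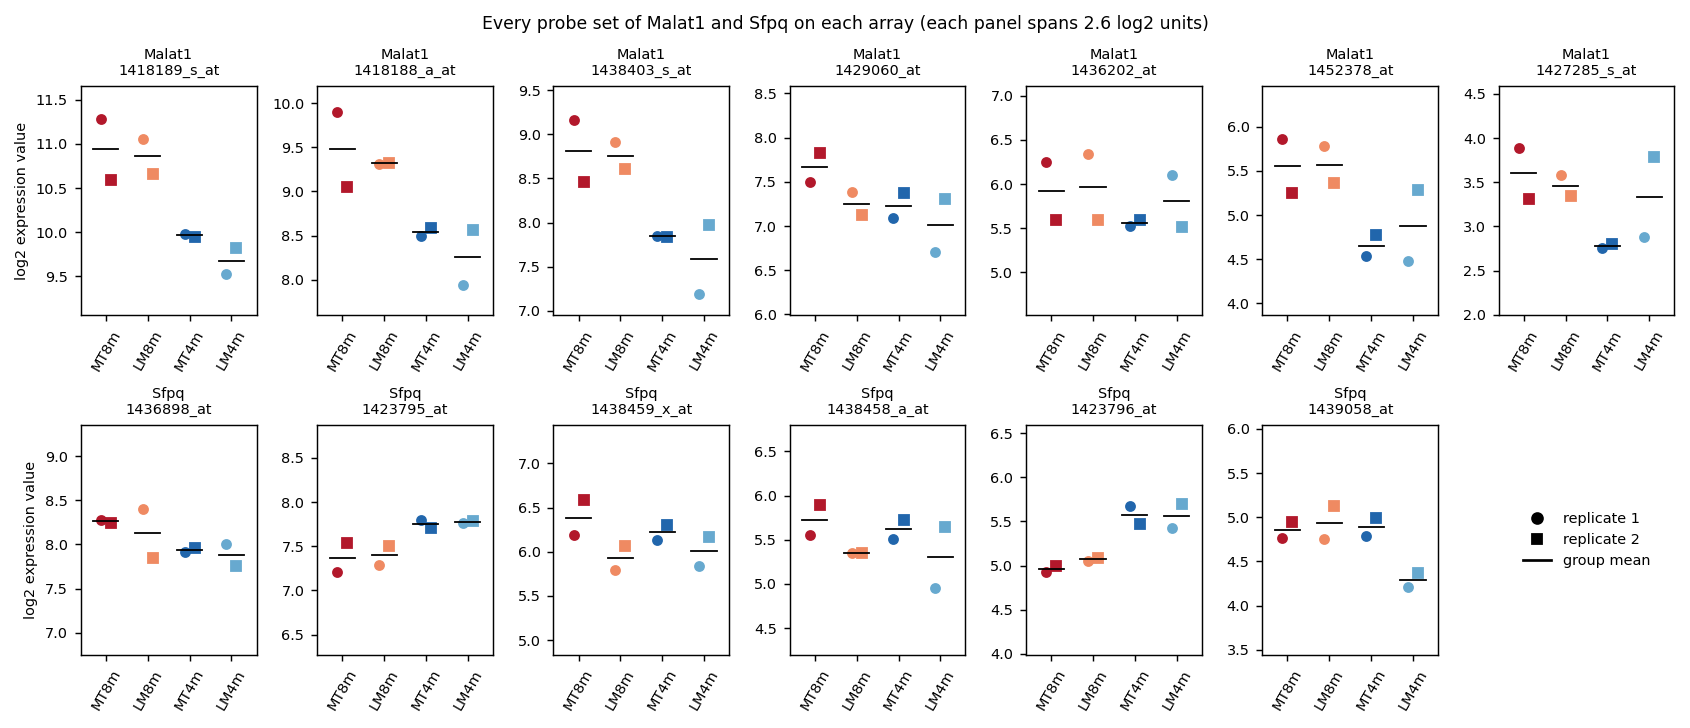
Every probe set of Malat1 (upper row) and Sfpq (lower row) on each array, as log2 expression values. Circles are replicate 1, squares replicate 2 and lines group means of 2 arrays. Malat1 1418189_s_at lies between 10.59 and 11.29 at 8 months and between 9.52 and 9.98 at 4 months, while Sfpq 1423796_at is lower at 8 months on every array.

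All 11 probe sets of Meg3 had a higher mean at 8 months, by 0.28 to 0.85, and all 11 overlapped between ages. The brightest, 1452906_at, was 10.57 and 10.15 in MT8m, 10.39 and 9.88 in LM8m, 9.55 and 10.18 in MT4m, and 9.71 and 9.68 in LM4m. MT4m replicate 2 reached the level of 8 months. The age difference was 0.47 ± 0.18 (1.38-fold, adjusted p = 0.712), or 0.36 without the library labelled MT8m replicate 1.

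The largest Meg3 difference was that of 1436713_s_at, with 8.20 and 7.91 in MT8m, 8.02 and 7.20 in LM8m, 6.68 and 7.42 in MT4m, and 6.92 and 6.90 in LM4m. It was 0.85 ± 0.21 (adjusted p = 0.581). The probe sets of Meg3 varied together, with correlations of 0.75 to 0.97 between the brightest and the others over the 8 arrays. The age difference of the brightest was 0.49 ± 0.25 in mutants and 0.44 ± 0.25 in littermates, and single arrays moved both. In mutants it was 0.28 without the library labelled MT8m replicate 1 and 0.18 without MT4m replicate 1, and in littermates it was 0.18 without LM8m replicate 1.

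Miat had a higher mean at 8 months in both genotypes. Its brightest probe set, 1455325_at, was 8.83 and 8.48 in MT8m, 8.48 and 8.02 in LM8m, 7.80 and 8.31 in MT4m, and 8.01 and 8.06 in LM4m. LM8m replicate 2 lay among the arrays of 4 months. The averaged age difference was 0.41 ± 0.16 (adjusted p = 0.712), with 0.60 ± 0.22 in mutants and 0.21 ± 0.22 in littermates, and the difference between these was 0.39 ± 0.31 (adjusted p = 1.00). Without the library labelled MT8m replicate 1 the averaged difference was 0.32 and that in mutants 0.43. The value in mutants was 0.35 without MT4m replicate 1, and that in littermates was 0.45 without LM8m replicate 2 and -0.02 without LM8m replicate 1.

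The dimmer Miat probe set, 1458903_at, was 4.61 and 3.92 in MT8m, 3.88 and 3.36 in LM8m, 2.71 and 3.70 in MT4m, and 3.89 and 3.31 in LM4m. Its age difference was 1.06 ± 0.37 in mutants and 0.02 ± 0.37 in littermates, and the difference between these, 1.04 ± 0.52, had an interval of -0.16 to 2.23. The highest and the lowest array of this probe set were both MT arrays.

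Neat1, the scaffold of the paraspeckle, also had a higher mean at 8 months on its brightest probe set. This probe set, 1428083_at, was 6.83 and 7.55 in MT8m, 7.08 and 6.89 in LM8m, 6.55 and 6.74 in MT4m, and 6.42 and 7.03 in LM4m. LM4m replicate 2 lay above 2 of the 4 arrays of 8 months. The age difference was 0.41 ± 0.19 (interval -0.02 to 0.83, adjusted p = 0.779), and the other probe set, 1442881_at, gave -0.12 ± 0.12. Without the library labelled MT8m replicate 1 the brightest gave 0.58, without MT8m replicate 2 it gave 0.23, and without LM4m replicate 1 alone 0.25.

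**Figure D2:**
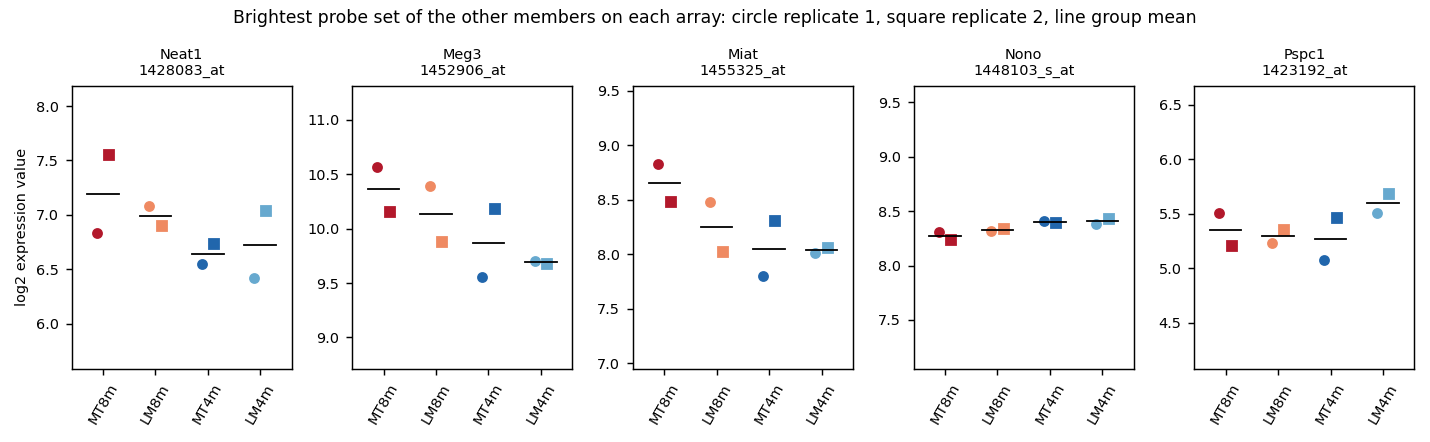
The brightest probe set of Neat1, Meg3, Miat, Nono and Pspc1 on each array, as log2 expression values, on axes that each span 2.6 units. Circles are replicate 1, squares replicate 2 and lines group means. Meg3 and Miat correlate at 0.96 over the arrays, and Nono stays between 8.23 and 8.43.

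Sfpq, which binds RNA and DNA and is needed for paraspeckles to form, gave opposite directions on different probe sets. The brightest, 1436898_at, was 8.28 and 8.25 in MT8m, 8.40 and 7.85 in LM8m, 7.92 and 7.96 in MT4m, and 8.00 and 7.76 in LM4m, an age difference of 0.28 ± 0.13 (adjusted p = 0.779). Its ages overlapped through LM8m replicate 2. The difference was 0.28 also without the library labelled MT8m replicate 1, and 0.14 without LM8m replicate 1.

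By contrast, 1423796_at was 4.93 and 4.998 in MT8m, 5.05 and 5.09 in LM8m, 5.67 and 5.47 in MT4m, and 5.43 and 5.69 in LM4m. All arrays of 8 months lay below all arrays of 4 months, and the difference was -0.55 ± 0.10 (1.47-fold lower, adjusted p = 0.393, rank 51 of 45037). 1423795_at was 7.20 and 7.53 in MT8m, 7.29 and 7.501 in LM8m, 7.80 and 7.71 in MT4m, and 7.76 and 7.78 in LM4m, also without overlap, with a difference of -0.38 ± 0.11 (adjusted p = 0.629). In both genotypes these differences had the same sign: -0.61 ± 0.14 in mutants and -0.49 ± 0.14 in littermates for 1423796_at, and -0.39 ± 0.15 and -0.38 ± 0.15 for 1423795_at in the same order.

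Over the 8 arrays, 1423795_at and 1423796_at correlated with the brightest Sfpq probe set at -0.78 and -0.75. The mean of all 6 Sfpq probe sets therefore moved little with age (-0.04), and the direction for the gene depends on the probe set taken. 1438459_x_at and 1438458_a_at differed by 0.04 ± 0.13 and 0.08 ± 0.16 between ages.

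The sixth Sfpq probe set, 1439058_at, was 4.76 and 4.95 in MT8m, 4.75 and 5.13 in LM8m, 4.79 and 4.997 in MT4m, and 4.21 and 4.37 in LM4m. Only the LM4m arrays stood apart, below the 6 others. Its age difference was -0.04 ± 0.17 in mutants and 0.65 ± 0.17 in littermates, and the difference between these was -0.69 ± 0.23 (adjusted p = 1.00). It was also 0.60 ± 0.17 higher in MT4m than in LM4m (adjusted p = 0.944).

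Nono and Pspc1 are the partners of Sfpq in the paraspeckle. Nono 1448103_s_at was 8.31 and 8.23 in MT8m, 8.32 and 8.34 in LM8m, 8.41 and 8.39 in MT4m, and 8.39 and 8.43 in LM4m. The arrays of 8 months all lay below those of 4 months, with a difference of -0.10 ± 0.08 (interval -0.29 to 0.08, adjusted p = 0.883), or -0.12 without the library labelled MT8m replicate 1. The other Nono probe sets differed by -0.21 ± 0.11 (1415820_x_at, also without overlap), -0.14 ± 0.09 (1447160_at) and 0.16 ± 0.11 (1431239_at).

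Pspc1 1423192_at was 5.50 and 5.20 in MT8m, 5.23 and 5.35 in LM8m, 5.08 and 5.46 in MT4m, and 5.51 and 5.68 in LM4m, with an age difference of -0.11 ± 0.12 (interval -0.39 to 0.17), or -0.19 without the library labelled MT8m replicate 1. It was 0.08 ± 0.17 in mutants and -0.30 ± 0.17 in littermates, and the difference between these was 0.39 ± 0.24 (adjusted p = 1.00). MT4m minus LM4m was -0.33 ± 0.17 for this probe set. Its other probe set, 1423193_at, gave 0.03 ± 0.10. These intervals bound the change of each probe set, and they do not show that the proteins' mRNA was the same at both ages.

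Counted over the 34 probe sets, 27 had a higher mean at 8 months and 7 a lower one, with a median difference of 0.31, beside a median of 0.01 over all probe sets tested. The arrays of 8 months lay above those of 4 months for 3 of 34, all of Malat1, where 1.71% of all probe sets did so, and below for 4 of 34, of Sfpq and Nono, where 2.01% did. Without the library labelled MT8m replicate 1 these counts were also 3 and 4, and without LM4m replicate 1 they were 4 and 4. With fewer arrays, overlap is easier to avoid. The shares of all probe sets were not counted for these reduced sets, so these counts do not show that the result is robust. At an unadjusted p under 0.05, 11 of the 34 probe sets, 5 of them of Malat1, were higher and 2 lower with age, against 3.25% and 3.23% of all probe sets. The counts were 12 in mutants (5.7% of all) and 8 in littermates (3.45% of all). Over the 4 groups, 8 of 34 had an unadjusted F test p under 0.05 (4 of Malat1, 1 of Meg3 and 3 of Sfpq) beside 4.89% of all, and 0 passed after adjustment, beside 0.0133% of all. Probe sets of 1 gene share their target gene, and the choice of genes used these arrays, so nothing is read from these shares.

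**Figure D3:**
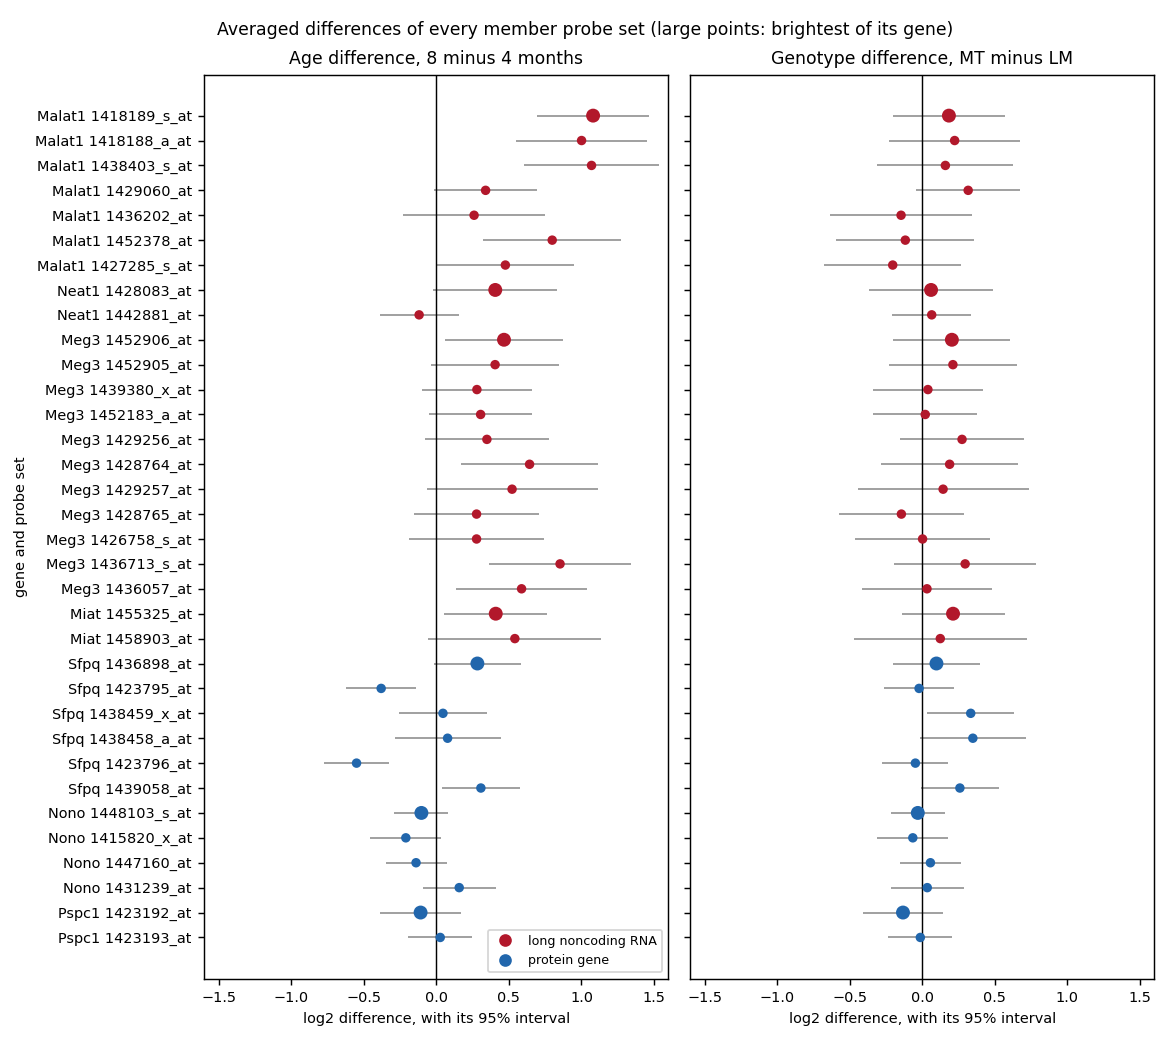
Log2 differences of the 34 probe sets with their 95% intervals, for age (left, 8 minus 4 months) and genotype (right, MT minus LM). Large points are the brightest probe set of each gene, red points long noncoding RNAs and blue points protein genes. Age differences run from -0.55 for Sfpq 1423796_at to 1.08 for Malat1 1418189_s_at, and genotype differences from -0.20 to 0.35.

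The genotype comparison asked whether these genes differed between transgenic mice and littermates. The array labels are followed here, while the study's own gene lists assign MT and LM to these arrays in the opposite sense, so signs are reversed against them. Averaged over ages, MT minus LM was 0.18 ± 0.17 for Malat1, 0.06 ± 0.19 for Neat1, 0.20 ± 0.18 for Meg3 and 0.21 ± 0.16 for Miat. It was 0.10 ± 0.13 for Sfpq, -0.03 ± 0.08 for Nono and -0.13 ± 0.12 for Pspc1. Without the library labelled MT8m replicate 1 the values were 0.01 for Malat1, 0.24 for Neat1, 0.10 for Meg3, 0.13 for Miat, 0.09 for Sfpq, -0.05 for Nono and -0.21 for Pspc1. None of the 34 probe sets passed, beside 0.06% of all. For all 34 the MT and LM arrays overlapped. The share of all probe sets without such overlap was not counted, so nothing is read from this.

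The values at 8 months alone moved with the doubtful library. MT8m minus LM8m was 0.08 ± 0.24 (interval -0.47 to 0.62) for the brightest probe set of Malat1, and -0.27 without the library labelled MT8m replicate 1. For Meg3 it was 0.23 ± 0.25, or 0.02 without that library, for Miat 0.41 ± 0.22, or 0.23 without it, and for Neat1 0.20 ± 0.26, or 0.56 without it.

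At an unadjusted p under 0.05, 1 of the 34 probe sets differed in each genotype comparison. That was Sfpq 1439058_at at 4 months (beside 4.86% of all probe sets), Sfpq 1438459_x_at at 8 months (0.46 ± 0.19, beside 3.39%) and the same probe set averaged over ages (0.33 ± 0.13, beside 5.76%). For the interaction it was Sfpq 1439058_at, beside 2.58% of all. In each case 1 of 34 is 2.94% of these probe sets. That is below the share of all probe sets in each genotype comparison and slightly above it for the interaction. A count of 1 is too small to read as a difference from these shares.

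The arrays differed in ways the groups do not describe. MT8m replicate 1, the library with Thy1 at the littermate level, was the highest array for 15 of the 34 probe sets, among them 5 of 7 of Malat1, 7 of 11 of Meg3 and both of Miat. LM8m replicate 1 was highest for 6 more. In Meg3 the replicate 1 arrays of MT8m and LM8m were the 2 highest for all 11 probe sets, and LM8m replicate 2 lay below the highest array of 4 months for all 11.

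**Figure D4:**
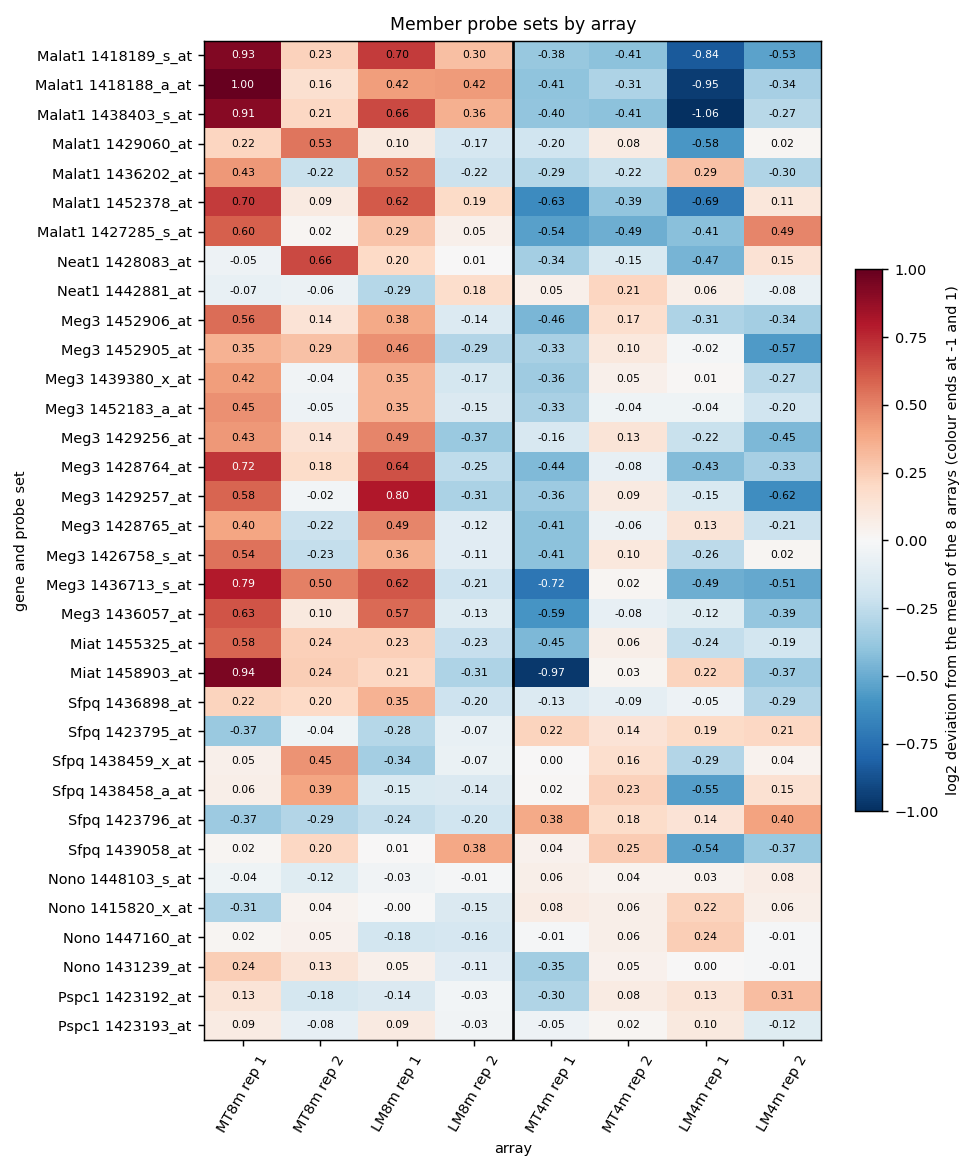
Deviation of each member probe set (rows) from its own mean over the 8 arrays (columns), in log2 units, with the arrays of 8 months left of the line. Malat1 1418189_s_at reaches 0.93 in MT8m replicate 1 and -0.84 in LM4m replicate 1. The rows of Meg3 and Miat are highest in MT8m replicate 1 or LM8m replicate 1.

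Among the brightest probe sets, Meg3 and Miat had the highest correlation over the 8 arrays (0.96), and Malat1 correlated with Meg3 at 0.81, with Miat at 0.76, with Sfpq at 0.71 and with Neat1 at 0.48. Nono correlated negatively with all 4 noncoding RNAs (-0.64 to -0.71) and with Sfpq (-0.75), and positively with Pspc1 (0.39). These arrays share the groups and any difference in RNA quality, and the values describe 8 points.

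Of 11580 genes compared, the 5 most like Malat1 over the 8 arrays were 9530057J20Rik (0.97), Ctdnep1, a phosphatase of the nuclear envelope (0.96), Zeb2, a zinc finger transcription factor (0.94), Galnt16, an enzyme of O-glycosylation (0.94), and Trpc7, a cation channel (0.92). Those most like the brightest Sfpq probe set were Dusp15, a phosphatase (0.97), Amdhd2, an enzyme of amino sugar metabolism (0.97), Man2c1, a cytosolic mannosidase (0.96), Snapc4, a subunit of the complex that starts small nuclear RNA genes (0.94), and Xdh, xanthine dehydrogenase (0.94). Zeb2 had an age difference of 0.55 ± 0.11 and Xdh of 0.75 ± 0.22.

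Paraspeckle proteins as a list, the 3 members included, had 12 genes with a higher mean at 8 months and 15 with a lower one. Of 29 listed, 27 were measured, 0 passed, and at an unadjusted p under 0.05 1 was higher and 2 were lower with age, with a median of -0.03 beside 0.00 over all genes. Of all probe sets, 3.25% were higher and 3.23% lower at this p. The lists use each gene's brightest probe set, for which no such share was counted. Nothing is therefore read from the counts of this list or of those below. The largest difference was that of Cirbp, a cold-inducible RNA-binding protein. It was 5.89 and 6.90 in MT8m, 6.32 and 5.97 in LM8m, 4.84 and 4.83 in MT4m, and 5.64 and 4.91 in LM4m, so that the ages did not overlap. Its difference was 1.22 ± 0.24 (2.33-fold, adjusted p = 0.460). The next in size were Rbm12 (-0.48 ± 0.16), the RNA-binding protein Taf15 (0.36 ± 0.17) and the splicing regulator Srsf10 (-0.34 ± 0.13), which the speckle list also holds. For Nono, Rbm14 and Srsf10 the arrays of 8 months all lay below those of 4 months.

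Of 33 proteins of nuclear speckles, where Malat1 lies, 31 were measured and 0 passed, with 2 higher and 2 lower at an unadjusted p under 0.05 and a median of 0.05. Tra2a, a splicing activator, was 6.57 and 6.92 in MT8m, 6.74 and 6.93 in LM8m, 7.65 and 7.19 in MT4m, and 7.10 and 7.19 in LM4m. It was lower at 8 months on every array, with a difference of -0.49 ± 0.13 (adjusted p = 0.620). The SR protein Srsf5 differed by 0.45 ± 0.21, and U2af1, which recognises the 3′ splice site, by 0.33 ± 0.11. Srsf5 differed by 0.61 in mutants and 0.30 in littermates, and U2af1 by 0.65 in mutants and 0.01 in littermates.

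Of 25 other long noncoding RNAs, 21 were measured and 0 passed, with 1 higher and 3 lower at an unadjusted p under 0.05 and a median of 0.05. The largest averaged differences were those of Sox2ot (-0.98 ± 0.29), Dleu2 (-0.58 ± 0.13), Snhg11 (0.53 ± 0.27) and Pantr1 (-0.42 ± 0.21). In mutants and littermates alone they were -1.59 and -0.37, -0.49 and -0.66, 0.81 and 0.25, and -0.86 and 0.02, in the same order. Dleu2 was 3.32 and 2.96 in MT8m, 2.93 and 3.31 in LM8m, 3.58 and 3.69 in MT4m, and 3.62 and 3.94 in LM4m, with no overlap. Sox2ot was 2.17 and 3.18 in MT8m, 2.21 and 1.88 in LM8m, 3.65 and 4.88 in MT4m, and 2.29 and 2.54 in LM4m, high mainly on the MT4m arrays.

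Of the Dlk1-Dio3 region, 4 of 6 listed genes were measured and 0 passed. Beside Meg3 these were the noncoding RNAs Rian (0.18 ± 0.22) and Mirg (0.38 ± 0.21) and the protein gene Dlk1 (0.10 ± 0.30). Rian was 7.25 and 6.31 in MT8m, 6.97 and 6.76 in LM8m, 5.70 and 6.34 in MT4m, and 7.29 and 7.24 in LM4m. It was thus lowest on the MT4m arrays and MT8m replicate 2. The splicing factors that bind Miat, Sf1 (-0.14 ± 0.12), Qk (-0.16 ± 0.20) and Celf3 (0.07 ± 0.15), and the synaptic adhesion genes that depend on Malat1 in cultured mouse hippocampal neurons, Nlgn1 (0.03 ± 0.12) and Cadm1 (-0.15 ± 0.13), all differed by little more than their errors, and 0 of these 5 passed.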

How the data were processed

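RNA of whole hippocampus with an RNA integrity number above the study's minimum was hybridised to 8 arrays. Log2 values of 45101 probe sets, between 0.979 and 12.9, were deposited after joint RMA normalization of the arrays by the authors in R (package affy, whose version is not given in the sources used here). The 64 control probe sets were left out of the tests. Probe sets were named through platform annotation, which gave 1 symbol for 34945, several for 932 and none for 9160, and through RefSeq (GRCm38.p6), which held 34741 of the first kind. Correlations between arrays were 0.985 to 0.993. For arrays, their number limits the precision.

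A model of the 4 groups was fitted with lmFit and eBayes of limma 3.58.1 in R 4.3.3 over all 8 arrays, with 4 residual degrees of freedom. Contrasts were age (8 minus 4 months) in each genotype and averaged, genotype (MT minus LM) at 8 months, at 4 months and averaged, their interaction, and an F test over the 4 groups. Tests were two-sided and adjusted by Benjamini-Hochberg over 45037 probe sets, with a threshold of 0.05 on the adjusted p. Standard errors, intervals and p-values come from this fit. It was run on simulated arrays in which 200 probe sets differed with age by 1 or 2 log2 units. The averaged age comparison found 97.3% and 99.8% of these, and 8.24% and 6.83% of its calls were false. The simulated noise was independent between probe sets, so differences of whole arrays were not covered. With 200 planted changes the Benjamini-Hochberg adjustment is also more lenient than in the data, where 0 probe sets passed this comparison. Malat1, with a difference of 1.08, did not pass there. The shares found therefore do not give the chance of finding such a change in these arrays.

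The members and the gene lists were chosen with earlier results of these data known. Named genes were the members, the up to 4 genes of each list with the largest averaged age difference together with any that passed, the 5 genes most like Malat1 and Sfpq by Pearson correlation among genes whose brightest probe set was above the median level, and Thy1, Cst7 and Gfap. Ttr was added beside these after its values had been seen. A list is described by its counts and its median, from the brightest probe set of each gene. Promoters were searched on both strands.

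Alternatives were 1 probe set per gene, leaving out dim probe sets, a robust and trended prior, normalization by cyclic loess, the mean of a gene's probe sets, fits of 2 groups, an additive model, the Gapdh 3′ to 5′ difference as a covariate, the title number as a replicate block, and each array or both doubtful arrays left out. A change of sign counted as a reversal only where the value passed the test.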

Additional observations from a re-analysis of the deposited data

How the results depend on the processing

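No member passed under any of the 19 alternatives. Of 819 values of the 7 genes in 7 comparisons, 768 kept their direction and 51 changed sign. The averaged age difference of Malat1 ran from 0.72 (mean of its probe sets) to 1.25 (without MT8m replicate 2), with adjusted p between 0.169 and 1.00. Leaving out 1 array at a time gave 0.91 to 1.25. That of Sfpq changed sign only with the mean of its probe sets (-0.04). Numbers in the sample titles are shared between the ages of a genotype. Deviations of same-numbered arrays from their group means correlated at 0.24 in LM and -0.17 in MT, so the number was not taken to pair arrays. With it as a replicate block, the Malat1 age difference was 1.08 with an adjusted p of 0.399. With the MT numbers crossed, a choice made after seeing the data, the adjusted p was 0.169 and 0 members passed. The counts of non-overlapping probe sets without the doubtful arrays were also added after seeing the data. The genotype comparisons could not be blocked, since MT and LM share no numbers. The signal over background of the probe sets was not known, since only normalized values were used.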
